A study of Microtus ochrogaster with 51 samples.

Results

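Male prairie voles (Microtus ochrogaster) that had lost a partner were compared with males still living with one, by bulk RNA sequencing of the nucleus accumbens with 1 library per animal. The comparison holds 21 males of the 42 libraries in the normalized count table and of the 51 libraries in the whole series. The males were chosen by their labels alone: sex, the treatment label and presence in the normalized table. The 9 males of the 2-week group had lived with a female mate for 2 weeks when sampled. The 12 separated males had also been paired for 2 weeks and were then isolated for 4 weeks, as the treatment label and the design text give it, whereas the treatment protocol states no interval before sampling. Every male in both groups had been mated, so no unmated animal enters the comparison. The labels give no strain and no age, and name no transgene or drug. Each male came from a separate pair, so no male is the partner of another.

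The prairie vole is a socially monogamous rodent in which mates form a lasting selective bond. The nucleus accumbens, in the ventral striatum, is built mainly of GABAergic medium spiny neurons, which receive dopamine from the midbrain and glutamate from the cortex, hippocampus and amygdala. Dopamine and oxytocin signalling in this nucleus are known to take part in bond formation, and corticotropin-releasing factor signalling there has been tied to the behaviour of males that lose a partner. None of these systems could be looked up here, because the tables list genes as Ensembl IDs (ENSMOCG) without names. The species' reference gene table matched 0 of the 23038 IDs. For the same reason the labelled tissue was not checked against its marker genes, and a change in cell make-up cannot be told apart from a change within cells.

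The males had similar depth in both groups. The reads on genes, recovered from the steps of the normalized counts, were 28331032 ± 3178430 in 2-week paired males (SD, n = 9; range 24531025 to 33019533) and 28431515 ± 4241714 in separated males (SD, n = 12; range 23530220 to 36685795). The difference in the means gave a two-sided exact permutation p of 0.953 over 293930 splits. The 11 most abundant IDs took 26.5 ± 5.88% of the normalized counts in 2-week paired males and 28.4 ± 5.03% in separated males (SD, n = 9 and n = 12; two-sided exact permutation p = 0.430). Genes with at least 1 read numbered 15827 ± 213 and 15892 ± 233 in the same order (two-sided exact permutation p = 0.520). Adjusted over these 3 measures the p-values were 0.953, 0.780 and 0.780. Cohort is another matter: the 2-week males fall in cohorts 1 (2 males) and 2 (7 males), and the separated males in cohorts 3 (5 males) and 4 (7 males). Treatment and cohort therefore cannot be told apart in any value that follows, and no within-cohort comparison of the groups exists.

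The question of the comparison is which transcripts differ between males that live with a mate and males that lost one. The separated males were also sampled at a later time since pairing and had lived in isolation. Loss of the partner, time since pairing and isolation therefore cannot be told apart between these groups, and "after separation" names the group only. Of 14139 genes whose normalized counts averaged 10 or more, 2 passed an adjusted p of 0.05 (0.0141% of the genes tested). A normalized count is a read count divided by the size factor of its library. ENSMOCG00000013660 rose after separation and ENSMOCG00000001083 fell. They were also the only genes of the 14139 for which the ranges of the 2 groups did not overlap (0.0141% of the genes tested).

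ENSMOCG00000013660 had normalized counts from 184 to 321 in the 9 paired males, with a median of 244. In the 12 separated males its counts ran from 330 to 552, with a median of 429. All 12 separated males lay above the highest paired male. The group means were 240 ± 46.3 (SD, n = 9) and 435 ± 75.4 (SD, n = 12), a log2 fold change of 0.86 ± 0.12 (SE; limma adjusted p = 0.00523), or 1.82-fold. By cohort the means were 214 ± 42.7 in cohort 1 (SD, n = 2) and 247 ± 47.6 in cohort 2 (SD, n = 7), against 449 ± 76.3 in cohort 3 (SD, n = 5) and 425 ± 79.2 in cohort 4 (SD, n = 7). The gene passed in each of 21 fits that left out 1 male, with limma adjusted p from 0.00203 to 0.0208. It did not pass when a whole cohort was left out: without cohorts 1, 2, 3 and 4 the log2 fold change was 0.82, 1.01, 0.83 and 0.91, with limma adjusted p of 0.0527, 0.659, 0.0783 and 0.322. In a fit of all 42 libraries its limma adjusted p in males was 0.0851, and 0.144 with partners treated as paired.

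ENSMOCG00000001083 had normalized counts from 82.8 to 181 in paired males, with a median of 101. In separated males its counts ran from 39.8 to 82.3, with a median of 55.2. The groups did not overlap, but the lowest paired male (pair 12) and the highest separated male (pair 32) were less than 1 count apart. The group means were 120 ± 33.9 (SD, n = 9) and 58.8 ± 14 (SD, n = 12), and the gene fell by 1.01 ± 0.17 (log2, SE; limma adjusted p = 0.0498). Levels were 162 ± 26.9 in cohort 1 (SD, n = 2), 108 ± 25.6 in cohort 2 (SD, n = 7), 53.4 ± 15.2 in cohort 3 (SD, n = 5) and 62.7 ± 12.7 in cohort 4 (SD, n = 7). The gene rests on 37 to 196 reads a library. Its call sat at the threshold: it passed in 4 of the 21 fits that left out 1 male, with adjusted p from 0.0312 to 0.186.

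**Figure D1:**
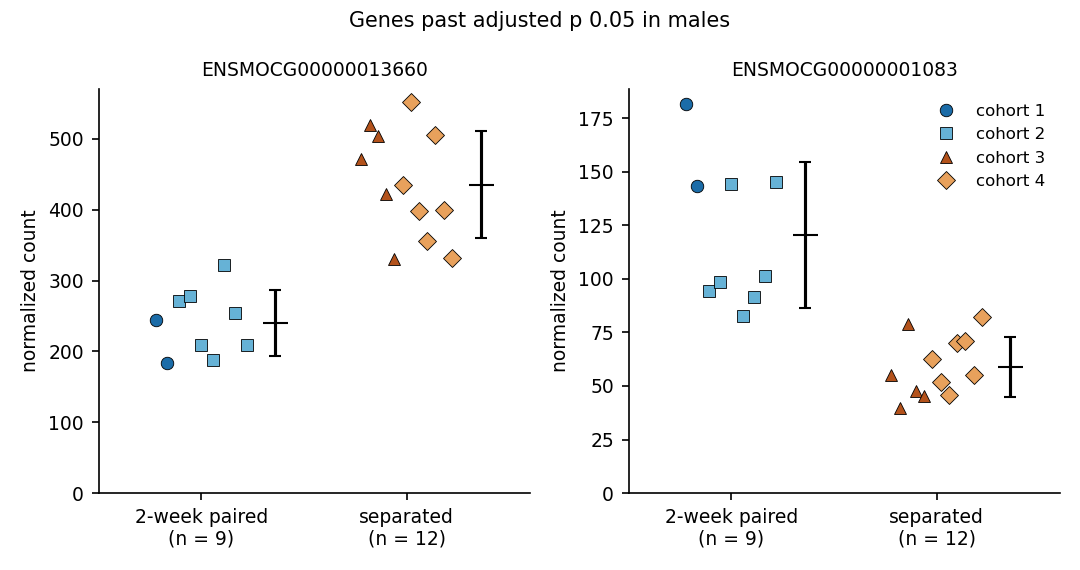
Normalized counts of ENSMOCG00000013660 and ENSMOCG00000001083 in each male, by group; marker shape and colour give the cohort, and the bars at the right of each group are the mean and SD. The 12 separated males lie above all 9 paired males for the first gene (330 against 321 at the closest point) and below them for the second (82.3 against 82.8).

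At an unadjusted p of 0.05, 1205 genes fell under the threshold (8.52% of the genes tested). Of these, 672 were higher after separation (4.75%) and 533 lower (3.77%). Few of the differences were large. The absolute log2 fold change had a median of 0.13 over all genes tested and 0.38 over the 1205. Of the 1205, 860 differed by less than 1.5-fold and 121 by more than 2-fold. Over all genes tested, 212 had a fitted change of more than 2-fold, and 181 of those had a mean count under 100. The share under the unadjusted threshold was 7.43% for genes with a mean count of 10 to 100, 8.12% for 100 to 1000 and 9.79% for 1000 or more. The largest fitted changes thus belonged mostly to scarce genes, whose median standard error was 0.35, against 0.11 for genes with a mean of 1000 or more.

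**Figure D2:**
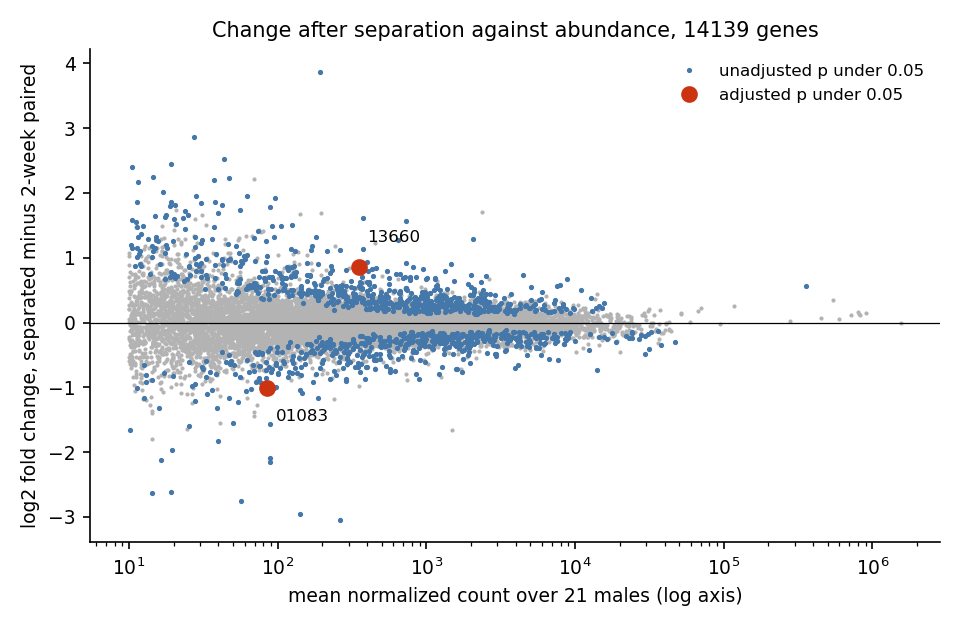
Log2 fold change (separated minus 2-week paired males) of each of 14139 genes against its mean normalized count on a log axis; blue points have an unadjusted p under 0.05 and the 2 red points, marked with the last digits of their IDs, an adjusted p under 0.05. Changes of more than 2-fold lie mainly among genes with a mean count under 100.

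The genes next in order did not pass, and are given by their values. Among genes with a mean count of at least 100, ENSMOCG00000013215 had the smallest p of the higher genes after ENSMOCG00000013660. Its counts were 40.8 to 158 in paired males (median 77.7) and 102 to 300 in separated males (median 160). Of the 12 separated males 6 lay above every paired male, and the highest paired male was that of pair 13. The fitted change was 1.11 ± 0.23 on the log2 scale (SE), with a limma adjusted p of 0.263.

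On the lower side the smallest p-values at that abundance belonged to ENSMOCG00000019430 and ENSMOCG00000014112. ENSMOCG00000019430 had counts from 5522 to 8267 in paired males (median 6911) and from 4752 to 6507 in separated males (median 5503), a log2 fold change of -0.32 ± 0.07 (SE; limma adjusted p = 0.277). ENSMOCG00000014112 had counts from 632 to 1621 in paired males (median 1318) and from 339 to 967 in separated males (median 616), a log2 fold change of -0.87 ± 0.20 (SE; limma adjusted p = 0.277). For both genes all 12 separated males lay below the paired mean, while the ranges overlapped.

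The 10 genes with the smallest p in each direction at a mean count of at least 100 were picked by that p, so their values are a description. Among the 10 higher genes, the log2 fold change ran from 0.63 to 1.11, and for each gene at least 10 of 12 separated males lay above the paired mean. Among the 10 lower genes it ran from -1.17 to -0.23, and for each gene at least 11 of 12 lay below the paired mean. Apart from ENSMOCG00000013660 the adjusted p of these 20 genes was 0.263 to 0.277. In females, 8 of the 10 higher and 9 of the 10 lower genes had the same sign, and 0 and 1 passed the adjusted threshold there (6 and 7 were under the unadjusted one with that sign). The 1 lower gene was ENSMOCG00000019430, at -0.51 ± 0.09 in females (SE; limma adjusted p = 0.00353 in the fit blocked on pair). Its effect in males minus that in females was 0.19 ± 0.10 (SE) and did not pass. The same sign was shared by 71.2% of all genes tested in both sexes. Among those under the unadjusted threshold in males the share was 88.4%. In females 7 of 14151 genes passed, and 1301 were under the unadjusted threshold. These females are the partners of the males and share their cohorts.

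Read depth was then added as a term, as planned for this comparison. The main axis of variation among these males went with it. The first principal component of the 21 libraries held 33.9% of the variance. The sign of a component is arbitrary, and it was set so that the component fell with the read total. The size of the relation was not set (Pearson r = -0.860, Spearman rho = -0.821, n = 21; both with permutation p = 1e-05, a floor set by 100000 resamples, and 2e-05 when adjusted over 2 relations). Without the 2 males farthest from the median read total r was -0.819. Within cohorts 2 and 4, with 7 males each, r was -0.968 and -0.900, and the other cohorts held too few males. The component also rose with the share of the 11 most abundant IDs (r = 0.622 by Pearson, with a permutation p of 0.00287, and rho = 0.635 by Spearman, with 0.0022; n = 21; both unaltered by the adjustment). That relation was r = 0.508 without the 2 farthest males, 0.794 in cohort 2 and 0.588 in cohort 4.

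With log2 read total as a covariate 4 of 14139 genes passed the adjusted threshold (0.0283%), and 2096 fell under the unadjusted one (14.8%). The fold changes hardly moved, because depth did not differ between the groups. Of the 14139 genes 28 changed sign, and 0 shifted by more than 0.2 on the log2 scale. What changed was the error: the median standard error went from 0.16 to 0.13 on the log2 scale. Of the 1205 genes under the unadjusted threshold without the depth term, 1203 were also under it with the term, which is 99.8% of the first list and 57.4% of the second. The gain was larger in abundant genes: the share under the unadjusted threshold went from 9.79% to 19.7% at a mean count of 1000 or more, and from 7.43% to 9.64% at 10 to 100. Thinning the reads of each male to the lowest total, without the depth term, gave no such gain. Then 2 of 13953 genes passed and 1181 were under the unadjusted threshold.

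The 4 genes were ENSMOCG00000013660 (limma adjusted p = 0.00355), ENSMOCG00000001083 (0.0231), ENSMOCG00000020270 (0.0231) and ENSMOCG00000011585 (0.0318). The last 2 were named after their values were seen. ENSMOCG00000020270 had counts from 4487 to 8669 in paired males (median 5746) and from 5206 to 14459 in separated males (median 9243). Of the separated males 7 lay above every paired male, and those of pairs 17 and 31 lay below the paired mean. With the depth term it rose by 0.58 ± 0.10 on the log2 scale (SE), against 0.59 ± 0.16 without the term, where it did not pass (limma adjusted p = 0.323). ENSMOCG00000011585 had counts from 575 to 923 in paired males (median 753) and from 686 to 1319 in separated males (median 1116). Of the separated males 9 lay above every paired male. With the depth term it rose by 0.47 ± 0.08, against 0.47 ± 0.13 without the term (limma adjusted p = 0.323). It kept its call in 11 of 21 fits with the depth term that left out 1 male (limma adjusted p from 0.0119 to 0.0988), losing it without pair 8, 9, 12, 16, 20, 24, 25, 26, 29 or 32. ENSMOCG00000020270 kept its call in 17 of them, losing it without pair 12, 16, 24 or 32, ENSMOCG00000001083 in 18, losing it without pair 8, 16 or 24, and ENSMOCG00000013660 in 21. With the first principal component in place of read depth ENSMOCG00000011585 did not pass (limma adjusted p = 0.0555). Leaving out 1 male moved the count with the depth term from 4 to between 1 and 60.

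The male of pair 11, in the 2-week group, has a far value in some genes. Its library was ordinary in depth, at 28093447 reads, and in the share of the 11 most abundant IDs, at 23.5%. Such shifts were not counted for the other males, and without this male 285 of 14127 genes shifted by more than 0.2 on the log2 scale. It stood far above or below the other 8 paired males (its gap to the nearest of them, as a share of the range on the log2 scale, passed the 95% critical value of Dixon's test) in 68 genes, or 0.481% of the genes tested. For the other paired males that number was 25 to 194 (0.177% to 1.37%), and the largest belonged to pair 13. The number for pair 11 lay within that range, so it does not set this male apart. In 3 genes the pair 11 male was both far and more than 2-fold above the next male.

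ENSMOCG00000018254 and ENSMOCG00000010003, which earlier results of these data named as lower after separation with the sexes averaged, are genes in which this animal was the highest of the paired males. For ENSMOCG00000018254 the male of pair 11 had 2837 normalized counts, and the other 8 paired males had 320 to 698 (median 571). The 12 separated males had 222 to 939 (median 345), and 1 of them, from pair 30, lay above those 8. For ENSMOCG00000010003 the male of pair 11 had 9613 normalized counts, against 760 to 3091 in the other 8 (median 1612) and 658 to 2567 in separated males (median 1076). The pair 11 male was 4.06-fold and 3.11-fold above the next paired male for these 2 genes. Its female partner had 1878 and 5444 counts, exceeded by 1 and 2 of the 9 paired females.

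The log2 fold change of ENSMOCG00000018254 in males was -0.77 ± 0.31 with the pair 11 male and -0.50 ± 0.23 without it (SE; limma adjusted p = 0.498 and 0.592). That of ENSMOCG00000010003 was -0.76 ± 0.32 with it and -0.46 ± 0.24 without it (SE; limma adjusted p = 0.519 and 0.637). With read depth and without that male the values were -0.50 ± 0.23 and -0.46 ± 0.23 (limma adjusted p = 0.306 and 0.349). Neither gene passed the adjusted threshold in any of these fits. The unadjusted p-values of the limma fit with all 21 males were 0.0195 and 0.0286. The male of pair 11 raised the paired means, which were 793 and 2519 with it and 538 and 1632 without it. For each gene 11 of 12 separated males lay below the paired median (654 and 1750), and the ranges overlapped.

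**Figure D3:**
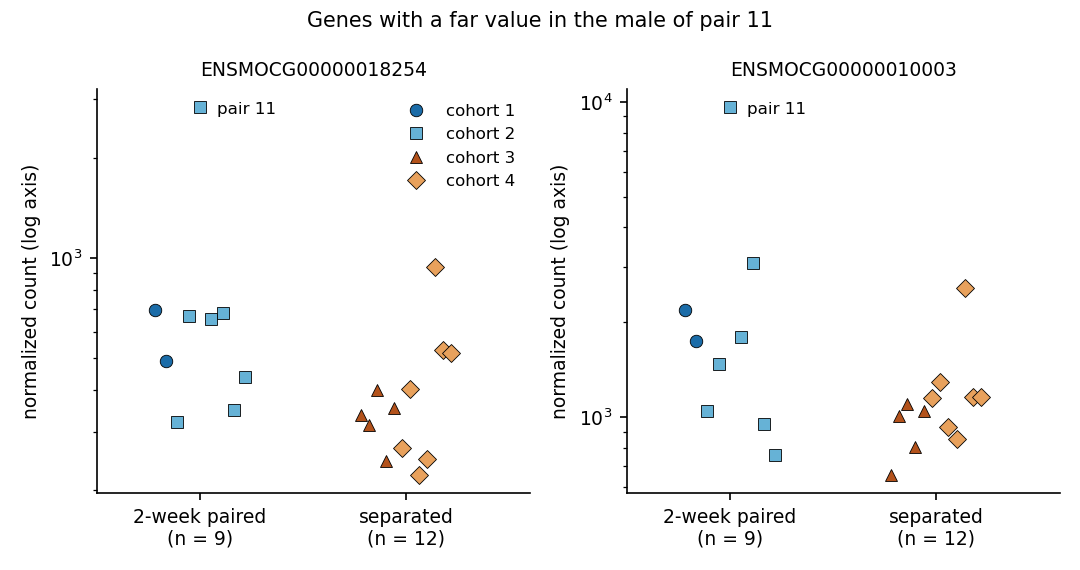
Normalized counts (log axis) of ENSMOCG00000018254 and ENSMOCG00000010003 in each male, by group, with marker shape and colour for the cohort. The male of pair 11 lies at 2837 and 9613, and the other paired males overlap with the separated ones.

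Without the male of pair 11, 1 of 14143 genes passed the adjusted threshold (0.00707%). It was ENSMOCG00000013660, at 0.84 ± 0.13 on the log2 scale (SE), with a limma adjusted p of 0.0200. ENSMOCG00000001083 was at -0.97 ± 0.18 and lost its call (limma adjusted p = 0.177). Of the 1205 genes under the unadjusted threshold, 966 were also under it without this male, or 80.2% of that list and 83.5% of the 1157 genes under it then. All 966 kept their sign. Without this male and with read depth 6 genes passed (0.0424%), among them all 4 called with the depth term. Each of those 4 kept its direction: ENSMOCG00000013660 was at 0.84 ± 0.13 (limma adjusted p = 0.0135) and ENSMOCG00000001083 at -0.97 ± 0.18 (limma adjusted p = 0.0422). ENSMOCG00000020270 was at 0.55 ± 0.10 and ENSMOCG00000011585 at 0.48 ± 0.09 (SE; limma adjusted p = 0.0422 for each).

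**Figure D4:**
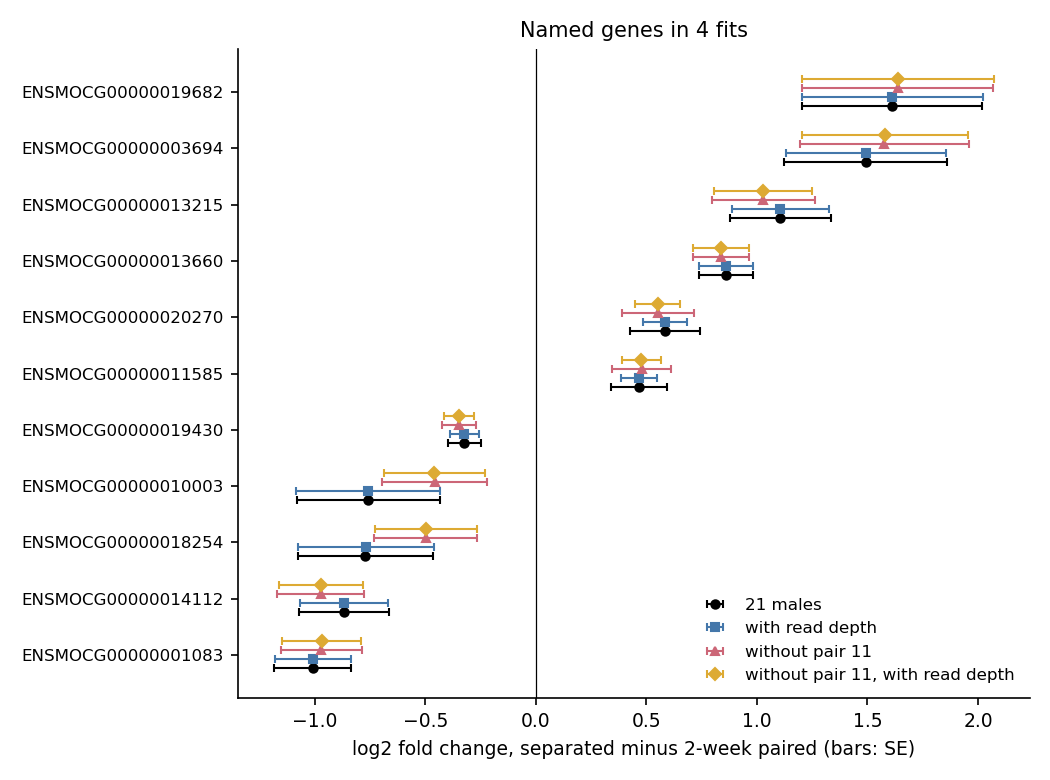
Log2 fold changes of 11 named genes in males (separated minus 2-week paired) with bars for the SE, in fits with and without read depth and with and without the male of pair 11. Read depth leaves the points in place and shortens bars such as that of ENSMOCG00000020270 (0.16 to 0.10), and leaving out pair 11 moves ENSMOCG00000018254 and ENSMOCG00000010003 toward 0.

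ENSMOCG00000019682 and ENSMOCG00000003694, named by the same earlier results as higher after separation, had large but scattered values in males. ENSMOCG00000019682 had 34.3 to 496 counts in paired males (median 136) and 172 to 1014 in separated males (median 492), a log2 fold change of 1.61 ± 0.41 (SE; limma adjusted p = 0.277). ENSMOCG00000003694 had 14.7 to 103 counts in paired males (median 41.7) and 36.6 to 386 in separated males (median 95.3), a log2 fold change of 1.49 ± 0.37 (SE; limma adjusted p = 0.277). For each gene 11 of 12 separated males lay above the paired mean and the ranges overlapped. Their changes were larger than that of ENSMOCG00000013660, and so were their standard errors. Within the separated males ENSMOCG00000019682 averaged 368 ± 188 in cohort 3 (SD, n = 5) and 601 ± 193 in cohort 4 (SD, n = 7), a difference that was not tested.

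The TPM table (a measure corrected for gene length and library total) holds males that did not enter the fit: 1 further male of the 2-week group (pair 15), 1 further separated male (pair 23) and 3 males paired for 6 weeks, of cohorts 3 and 4. Their values are given as a description, since no read counts were recovered for them. The authors left the males of pairs 15 and 23 out of the normalized counts, under a name that speaks of quality samples. ENSMOCG00000013660 had 7.52 to 14.3 TPM in the 9 paired males (median 9.54) and 13.3 to 25.9 TPM in the 12 separated males (median 16.7), so that the groups overlapped slightly on this scale. The 6-week males of pairs 22, 18 and 27 had 11.7, 13.26 and 22.2 TPM. Those of pairs 22 and 18 lay within the range of the 2-week males and below the lowest separated male, at 13.35 TPM, and that of pair 27 lay within the range of the separated males only. The further 2-week male had 16.5 TPM, above each of the 9, and the further separated male had 44.5 TPM, above each of the 12.

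For ENSMOCG00000001083 the 9 paired males had 1.34 to 3.07 TPM (median 2.12) and the 12 separated males 0.689 to 1.81 TPM (median 1.01). The 6-week males had 0.816, 0.953 and 1.14 TPM, all below the lowest 2-week male and within the range of the separated ones. The further 2-week male had 3.03 TPM and the further separated male 1.78 TPM. In the same 21 males on the TPM scale, ENSMOCG00000013660 passed (0.80 ± 0.13 on the log2 scale, SE, with a limma adjusted p of 0.0408) and ENSMOCG00000001083 did not (-0.78, limma adjusted p = 0.230). With the further male of each group included, neither passed (limma adjusted p = 0.517 for each).

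**Figure D5:**
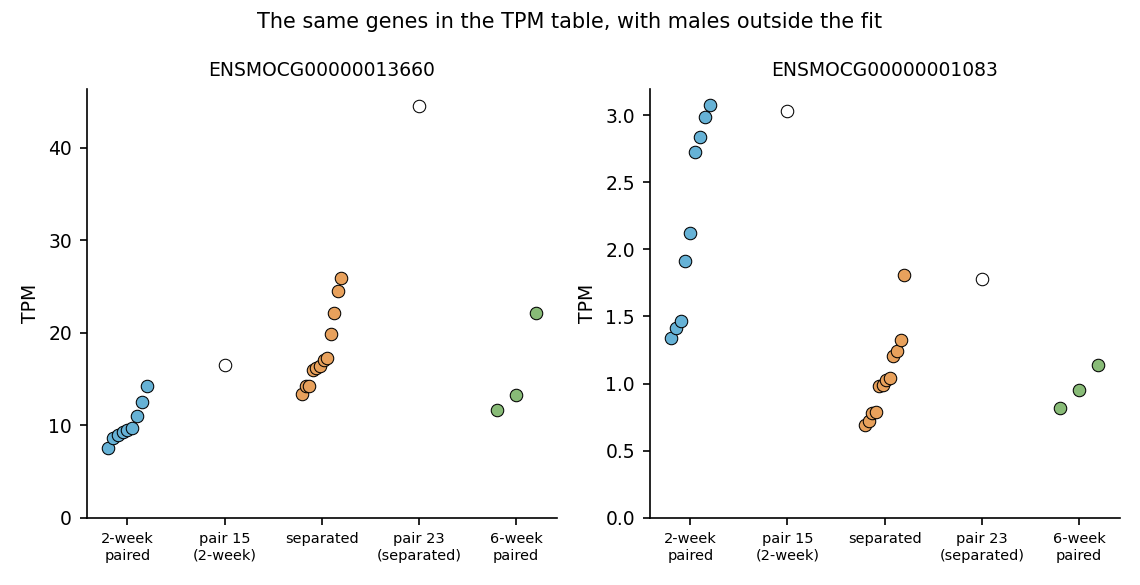
TPM of ENSMOCG00000013660 and ENSMOCG00000001083 in the 9 paired and 12 separated males of the fit, in 1 further male of each group (open circles, pairs 15 and 23) and in 3 males paired for 6 weeks. For the second gene the 6-week males (0.816 to 1.14) lie among the separated males.

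Females of the same study were set beside the males. The labels do not list the female of pair 9 for the normalized table, though it holds a column of her name, and list the female of pair 15, who has none; the columns were followed. Without the female of pair 9, an alternative chosen after seeing the data, none of the 11 named genes changed its call in females or in the difference between the sexes, and the female log2 fold changes moved by -0.14 to 0.16. The 9 paired females had 73.1 to 397 normalized counts of ENSMOCG00000013660 (median 249) and the 12 separated females 180 to 456 (median 305). Their log2 fold change was 0.47 ± 0.20, in the direction of males, and did not pass (SE; limma adjusted p = 0.416 in the fit blocked on pair). The effect in males minus that in females was 0.39 ± 0.22 (SE; limma adjusted p = 1.00). ENSMOCG00000001083 had 36.2 to 111 counts in paired females (median 68.0) and 29.2 to 141 in separated females (median 61.2), a log2 fold change of -0.04 ± 0.22. Its difference between the sexes was -0.97 ± 0.25 (SE; unadjusted p = 0.000286, limma adjusted p = 0.400). ENSMOCG00000013215 was at -0.18 ± 0.25 in females, and its difference between the sexes was 1.28 ± 0.27 (SE; unadjusted p = 2.42e-05, limma adjusted p = 0.114). Neither difference passed, so neither change was shown to be particular to males.

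The test of the sex difference called 1 of 14151 genes (0.00707%), ENSMOCG00000017273, which had 0 reads in all 21 males. That call therefore describes females and no change in males. For ENSMOCG00000018254 and ENSMOCG00000010003 the effect in males minus that in females was 1.37 ± 0.42 and 1.38 ± 0.39 (SE; limma adjusted p = 0.777 for each). The female changes were -2.14 ± 0.38 and -2.13 ± 0.35, and both passed in females (SE; limma adjusted p = 0.00353 and 0.00263). Of 14099 genes tested in both sexes, 71.2% had the same sign in females as in males. Of the 1202 of these under the unadjusted threshold in males, 88.4% had the same sign, and 418 were under it in females too with that sign. Of all 14099 genes, 1300 were under it in females with either sign, which is a different measure. Because partners share pair and cohort, these shares are a description and not an independent repeat.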

How the data were processed

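The normalized table holds, per the file name and the submitters' processing notes (DESeq2 and DESeq, no version), a signal per gene: the authors' read counts divided by 1 size factor per library. In the male libraries 100.0% of the values above 0 were whole multiples of 1 step (tolerance 0.01 of a read), and reads were recovered from these steps. The second deposited table holds TPM. For the aligner, counter, build and annotation nothing was given in the sources used here. Genes averaging 10 or more normalized counts over the 21 males were fitted on log2(normalized count + 1) with limma 3.58.1 (R 4.3.3; eBayes with trend and robust options) and adjusted by Benjamini-Hochberg over all genes tested. Fold changes are on this scale, which understates the change of low genes. The sex difference was fitted on all 42 libraries with the pair as a block, because the labels name partners as a pair (consensus correlation 0.396). TPM was fitted as log2(TPM + 0.5) at a mean of at least 1. Alternatives used edgeR 4.0.16, DESeq2 1.42.0, other filters and left-out libraries. The limma fits of males with and without read depth were checked on simulated counts with large planted changes in genes averaging at least 100 counts. Those counts held no cohort effect and no main axis tied to read depth. The check therefore does not reach smaller changes or variation of that kind.

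Members, lists and the rule for named genes were chosen with earlier results of these data known. Without gene names the rule took the 2 genes per direction with the smallest p at a mean count of at least 100, plus 4 genes named earlier; ENSMOCG00000001083 was named outside it because it passed. Planned gene lists could not be used. Among 102 pairs of males of a group 0 were identical (lowest chi-square per degree of freedom 19.2), so all were counted as separate. The labels name each animal as a separate library; all p-values measure the spread between animals within cohorts and treatment together.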

Additional observations from a re-analysis of the deposited data

Results flagged for a closer look

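The normalized count of ENSMOCG00000018254 in the 2-week paired male of pair 11 was 2837, separated from the other 8 by a gap of 0.643 of the group's range on the log2 scale. At the 95% critical value used, chance flags about 1 in 20 groups, and the 11 named genes were looked at. This gene was named with the far value of pair 11 already known, so the gap is a description and not a test. Over all genes tested, the male of pair 11 was far in 68 (0.481%). For ENSMOCG00000010003 the gap was 0.447 of the range, which does not reach the critical value of Dixon's test.

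For ENSMOCG00000017273 the effect of separation in males minus that in females was 5.40 ± 0.56 (log2, SE), with a limma adjusted p of 3.65e-08 in the fit blocked on pair. It had 0 reads in the 21 males and in the separated females, and 69.2 ± 59.4 normalized counts in the 2-week paired females (SD, n = 9), so the size of the fitted value depends on the pseudocount.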

How the results depend on the processing

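ENSMOCG00000013660 kept its direction in all 40 alternatives and passed in 33, and ENSMOCG00000001083 kept its direction and passed in 13 of 39 that gave it an adjusted p. The 11 named genes changed sign in 0 of 436 refits; 33 lost and 17 gained a call. The 2 genes called became 4 with read depth, 6 with read depth and without pair 11, 8 with the first principal component, 253 with array weights and 33 with DESeq2. They became 1 with no filter, with a minimum mean of 100 and with TPM of the same males, and 0 with TPM of all males and in the fit of all 42 libraries, with or without the pair as a replicate block (ENSMOCG00000013660 then had a limma adjusted p of 0.144 and 0.0851). They became 0 without cohort 1, 2 or 4, and 1 without cohort 3, ENSMOCG00000003192 (log2 fold change -1.02, limma adjusted p = 0.00984; -0.62 and 0.491 with all males). Without 1 male they lay between 1 and 4: 1 in 17 fits, 2 in 3, and 4 without pair 13. The 1205 genes at an unadjusted p became 2096 with read depth, 2165 with read depth and without pair 11, 2065 with the first principal component, 2795 with array weights, 678 and 437 with TPM of the same and of all males, 1006 without cohort 1, 632 without cohort 2 and 489 without cohort 4. They were 1176 and 1087 in the fit of all 42 libraries without and with the replicate block. They lay between 884 and 1875 without 1 male, the highest without pair 17. With the depth term the 4 genes became 239 with DESeq2 and 2 without that term or with reads thinned to the lowest total. Without 1 male they lay between 1 and 60: 60 without pair 2, 40 without pair 19, 30 without pair 17, 9 without pair 13 or 31, 2 without pair 8, 12 or 32 and 1 without pair 16 or 24. The called gene of the sex difference was the same in its 4 alternatives, among them the one without the female of pair 9, chosen after seeing the data. The cause of these moves was not tested. No replicate numbers are shared between the 2 groups of males, so the comparison itself has no pairing.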
